A study of Mus musculus with 34 samples.

Results

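The genes that encode the proteins of the cytosolic ribosome were followed in N2A cells treated with 27 compounds. Members were taken by gene symbol, as the Rpl and Rps genes with a number, plus Rplp0, Rplp1, Rplp2 and Rpsa. Pseudogene names and the Rps6k kinases were left out. The rule gave 87 of 52661 genes, of which 7 are paralogues set apart by name (Rpl3l, Rpl7l1, Rpl10l, Rpl22l1, Rpl39l, Rps4l and Rps27l). The others were sorted by name into 46 genes of the large 60S subunit and 34 of the small 40S subunit, and the latter still hold the further copies Rps12l1, Rps3a2 and Rps3a3.

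Neuro-2A (N2A) is an established mouse neuroblastoma line, and the compounds had been picked because they modulate the splicing of microexons, very short neuronal exons. Polyadenylated RNA from 34 libraries was sequenced after 24 h of treatment, with 0.4% DMSO as the solvent in every culture, controls included. There were 3 libraries with DMSO alone, 2 for each of 4 histone deacetylase (HDAC) inhibitors (Vorinostat at 2.5 μM, CI-994 at 5 μM, BRD6688 and BRD4884 at 10 μM each) and 1 for each of 23 other compounds. Among those 23, the text turns on BTB13120 at 625 nM, T5985871 at 6.7 μM, AW00693 at 5 μM, BTBS00065 at 2.5 μM and the kinase inhibitors GNF-5837 at 500 nM, Crenolanib at 2 μM, SCH-772984 at 2 μM and Trametinib at 1 μM. All cells came from 1 line, and every compound is set against the same 3 DMSO libraries.

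Expression was deposited as RPKM, reads scaled to transcript length and to sequencing depth, with the replicates of a condition merged into 1 value, so RPKM gives levels and ratios but no error. Replicate error came from reads that cross exon-exon junctions next to annotated introns, which were available for each library and were summed per gene. A library held between 17702718 and 40613524 such reads (median 26332957). Of the 8 neuroblastoma and neuronal markers, 7 were above 5 RPKM in DMSO, and Hand2 had 140 to 397 RPKM and Tubb3 125 to 661 RPKM over the conditions. None of 8 markers of blood, liver, skin, muscle and glia was above 5 RPKM in DMSO. In bulk RNA, fewer cells and less RNA per cell cannot be told apart, and a value scaled to the library says nothing of the total RNA in a culture.

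Cytosolic ribosomes are built from ribosomal RNA and about equal amounts of each core protein, which are made in the cytoplasm, imported into the nucleolus and assembled there. The mRNAs of nearly all of these proteins begin with a terminal oligopyrimidine (TOP) tract, a C followed by a short run of pyrimidines at the cap, through which mTOR signalling sets their translation. In growing tumour cells these mRNAs are among the most abundant in the cell.

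The starts of 8 members are shown because the TOP tract is what the group is known to share. Each line holds 30 bases of the gene's strand around a RefSeq start in GRCm38.p6, with 15 bases before the annotated first base, and capitals mark a run that begins with C and goes on with at least 4 bases that are C or T, where it lies within 5 bases of that start.
Rps6 (chr4:86857353-86857382, minus strand): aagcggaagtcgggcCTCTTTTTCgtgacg
Rpl12 (chr2:32961697-32961726, plus strand): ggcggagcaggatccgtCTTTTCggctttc
Rpl13a (chr7:45128731-45128760, minus strand): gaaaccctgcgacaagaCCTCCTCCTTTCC
Rps24 (chr14:24490663-24490692, plus strand): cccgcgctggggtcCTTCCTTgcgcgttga
Rpl22l1 (chr3:28805493-28805522, plus strand): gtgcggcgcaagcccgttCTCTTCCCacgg
Rps27l (chr9:66946071-66946100, plus strand): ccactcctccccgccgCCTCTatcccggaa
Rpl5 (chr5:107900513-107900542, plus strand): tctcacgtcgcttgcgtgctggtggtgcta
Rplp0 (chr5:115559452-115559481, plus strand): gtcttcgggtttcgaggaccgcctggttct

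A start could be matched for 63 of the 87 members. A run of this kind, searched on the gene's strand only, began exactly at the annotated base in 13 of them (20.6%), against 3.01% of 27025 genes and 0 of 69 genes for mitochondrial ribosomal proteins. Within 5 bases of the annotated start it was found in 29 members (46.0%), against 21.2% of all genes. Rpl5 and Rplp0 had none in this window, which says only that the letters are not at the annotated start.

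In DMSO, 83 members were above 5 RPKM and 73 were above 100 RPKM. The median of those 83 was 996 RPKM, against 26.9 RPKM for the 9397 genes above that limit. Together the members held 11.2% of the summed RPKM of all genes. The most abundant of the named members were Rps24 at 4276 RPKM, Rplp1, an acidic protein of the stalk that recruits elongation factors, at 3433 RPKM, and the very small Rpl41 at 3302 RPKM. Rpl10l, Rps12l1 and Rps4l were listed at 0 and Rpl3l, a striated muscle form of Rpl3, at 0.18 RPKM.

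The members moved together in a few conditions and stayed near the other genes in most. Ratios to DMSO were taken on the log2(RPKM + 0.5) scale, which understates the change of low genes, and the median ratio over all genes that passed 5 RPKM in either condition was then subtracted. The centred member median was −0.87 in BRD6688, −0.81 in CI-994 and −0.78 in BTB13120, and 0.49 in T5985871. In SCH-772984, BTBS00065, Trametinib, Crenolanib, Vorinostat and GNF-5837 it lay between −0.32 and −0.25, and in the other 17 compounds between −0.18 and 0.08.

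**Figure D1:**
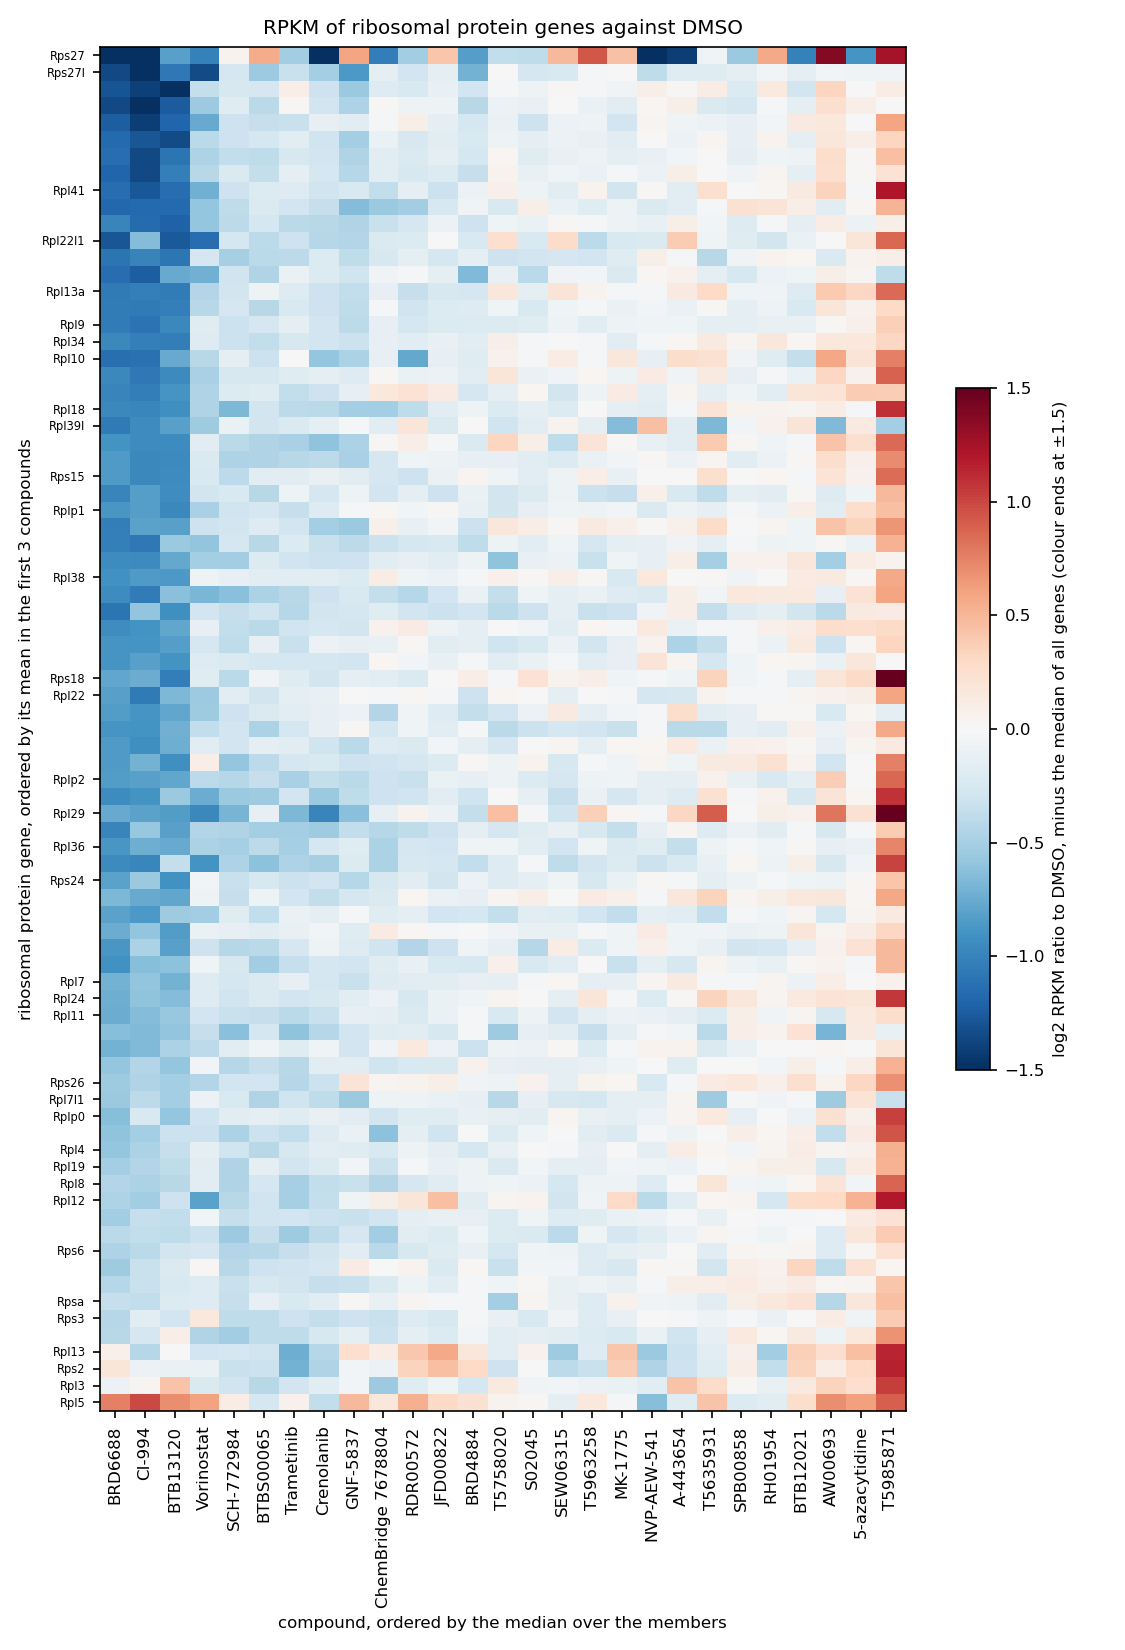
Heat map of 81 members above 5 RPKM in DMSO (rows, with labels for those named in the text) in 27 compounds (columns, ordered by the member median), coloured by the log2 ratio of RPKM to DMSO minus the median of all genes, with colours ending at ±1.5. BRD6688, CI-994 and BTB13120 are blue for nearly all rows (medians over all 83 members of −0.87, −0.81 and −0.78), Rpl5 in the last row is red there, and T5985871 is red for most rows (median 0.49).

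Past 1.5-fold, 63 of 83 members were lower in BRD6688 (14.3% of all genes), 58 in CI-994 (25.4% of all genes) and 55 in BTB13120 (9.93% of all genes). Vorinostat had 14 members past that fold (24.1% of all genes) and BRD4884 had 3 (8.85% of all genes). T5985871 had 32 members past 1.5-fold higher (18.5% of all genes) and 0 past it lower (15.2% of all genes). Large and small subunit genes were alike in these ratios, with medians of −0.84 and −0.89 in BRD6688, −0.80 and −0.88 in CI-994, −0.76 and −0.78 in BTB13120, and 0.50 and 0.49 in T5985871. The centring mattered most for CI-994, where the median of all genes stood at −0.44, and for Vorinostat, BRD4884 and T5985871 it was −0.36, −0.27 and −0.20.

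The share of summed RPKM held by the members was 6.82% in BRD6688, 6.76% in CI-994 and 6.79% in BTB13120, with 8.30% in Vorinostat, 10.5% in BRD4884 and 11.8% in T5985871. Over the 28 conditions it ran from 6.76% to 11.9%, the highest being in 5-azacytidine. Per library, the share of junction reads was 1.17%, 1.24% and 1.19% in DMSO and 0.738% and 0.746% in CI-994. It was 0.704% and 0.774% in BRD6688, 1.12% and 1.09% in BRD4884, and 1.25% and 0.856% in Vorinostat. The 2 libraries of CI-994, of BRD6688 and, by less, of BRD4884 lay below all DMSO libraries, while those of Vorinostat fell on either side of them.

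The intron table held rows for 35 members, and junction reads could be tested for 33 of them among 10689 genes with at least 20 reads on average, with limma on log2 scaled reads and Benjamini-Hochberg adjustment over all genes. In CI-994, 32 of the 33 were called lower (37.1% of all genes), with a median log2 change of −1.003, and in BRD6688 31 were called lower (31.6% of all genes), with a median of −1.04. In BTB13120, a drug-like compound with 1 library, 28 were called lower (16.9% of all genes), with a median of −0.93. No member was called higher in these conditions. Among the members not called were Rps2 in all of them, Rpl13 in BRD6688 and BTB13120, and Rpl10 and Rpl19 in BTB13120. In BRD6688 the log2 changes of Rps2 and Rpl13 were above 0, at 0.27 and 0.13. Their merged RPKM there was 976 and 1266, against 977 and 1362 in DMSO. For many of the 33, among them Rplp0, Rpl22 and Rps15, the reads are those of 1 junction.

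Rplp0, the scaffold of the ribosomal stalk, had 11415, 10641 and 10239 scaled junction reads in the DMSO libraries. It had 5543 and 5417 in CI-994, 5366 and 4358 in BRD6688, and 3525 in BTB13120. All 5 treated libraries lay far below the controls, and limma gave log2 changes of −0.97 (SE 0.0963, adjusted p = 5.77e-07), −1.15 (SE 0.0963, adjusted p = 4.7e-07) and −1.61 (SE 0.122, adjusted p = 2.66e-06). The falls were smaller in merged RPKM before centring, with 2018 in DMSO, 1266 in CI-994, 1139 in BRD6688 and 1264 in BTB13120. The median log2 RPKM ratio of all genes was itself −0.44 in CI-994, −0.19 in BRD6688 and −0.10 in BTB13120. After centring, the falls of Rplp0 in RPKM were therefore smaller still, most of all in CI-994, where the 2 readouts lie far apart.

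Rpl22, a large subunit protein that also binds RNAs outside the ribosome, had 802, 841 and 808 scaled reads in DMSO, 301 and 277 in CI-994, 374 and 347 in BRD6688 and 437 in BTB13120. The groups did not overlap, and the log2 change ran from −1.5 in CI-994 (limma adjusted p = 1.1e-08) to −0.90 in BTB13120 (adjusted p = 0.000351). Rpl13a, known for its part in the GAIT complex that silences inflammatory mRNAs, had 7141, 8168 and 7758 scaled reads in DMSO. It had 4618 and 4346 in CI-994, 3959 and 4386 in BRD6688 and 4746 in BTB13120. These were also below every control library, with log2 changes of −0.78, −0.88 and −0.69.

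The largest falls differed among these conditions. In CI-994 they were those of Rps27l, a paralogue of Rps27 that is a p53 target, at −1.94, and of Rps15, a protein of the 40S head, at −1.67. In BRD6688 they were those of Rpl38 (−1.64) and Rpl9 (−1.59), and in BTB13120 those of Rps15 (−1.89) and Rpl9 (−1.79). Rpl38 had few reads, 75, 78 and 73 in DMSO. The smallest changes in CI-994 were those of Rps3, a 40S protein at the mRNA entry channel, at −0.36 (limma adjusted p = 0.0179), and of Rpl4, a 60S protein that lines the exit tunnel, at −0.47 (adjusted p = 0.000274), so the size of the fall differed between members.

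Rps2 and Rpl13 had controls that differed widely among themselves. Rps2 had 965, 521 and 421 scaled reads in the DMSO libraries, and Rpl13 had 5776, 3400 and 3744, so DMSO library 1 was high for both. The second BRD4884 library was high as well, with 1277 for Rps2 and 6285 for Rpl13.

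**Figure D2:**
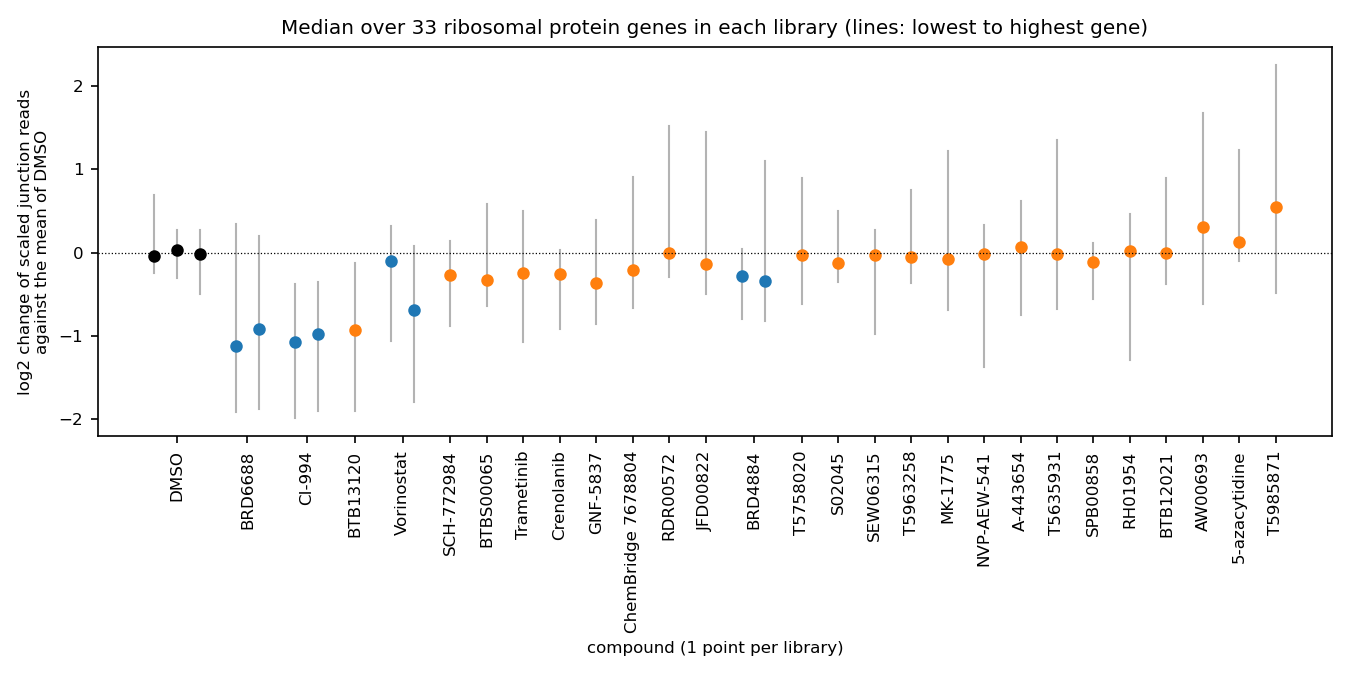
Each point is 1 library (black for DMSO, blue for the HDAC inhibitors, orange for the other compounds), placed by the median over 33 members of its log2 difference in scaled junction reads from the DMSO mean, and the line runs from the lowest to the highest member. The DMSO libraries lie at −0.04, 0.03 and −0.01, CI-994 at −1.07 and −0.97, BRD6688 at −1.13 and −0.92, BTB13120 at −0.93 and T5985871 at 0.54, while the Vorinostat libraries lie apart at −0.10 and −0.69.

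The members are short, and other genes of their length were also often lower in the same conditions. The principal coding transcript of the members above 5 RPKM had a median of 878 bases, with quartiles of 612 and 1158 bases, against 3006.5 bases for all protein-coding genes above that level. The 545 other coding genes between those quartiles that were tested had a median log2 change of −0.58 in CI-994 (57.4% called lower), −0.52 in BRD6688 (54.9%), −0.49 in BTB13120 (44.8%) and 0.30 in T5985871. The member medians of −1.003, −1.04, −0.93 and 0.54 were further from 0 in each case. Within 81 members, coding length and the centred RPKM ratio had a Spearman correlation of 0.541 in BRD6688, 0.501 in CI-994, 0.517 in BTB13120 and 0.054 in T5985871, across genes that share their libraries. The 27 members with coding sequences of at most 396 bases had a median of −0.94 in BRD6688, and the 27 with at least 576 bases had −0.56. The part of transcript length in these differences was not tested.

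In Vorinostat, a hydroxamate inhibitor of several HDACs, 18 of the 33 members were called lower (36.8% of all genes), and the libraries disagreed. Rpl7, a 60S protein, had 21720 and 14951 scaled reads in the Vorinostat libraries and 21167, 22179 and 19474 in DMSO, so that library 1 lay inside the controls and library 2 below them. For Rpl41 both Vorinostat libraries lay below the controls but far apart, with 849 and 474 against 1002, 938 and 1168. Without library 1, 29 members were lower, with a median of −0.69, and without library 2, 7 were lower, with a median of −0.10. Without DMSO library 2 the count was 11. Library 1 was the shallowest of the series, at 17702718 junction reads, and whether depth bears on the split was not tested. Rps27l was low in both, with 1026 and 618 against 2091, 2185 and 2158, a log2 change of −1.43 (limma adjusted p = 1.2e-06).

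BRD6688 and BRD4884 are benzamide HDAC inhibitors related to CI-994. BRD4884 carries a fluorophenyl and an oxane carboxamide group, where BRD6688 carries a pyridinyl and a pyrrolidine carboxamide group, and both were given at the same dose for the same time. This was the only pair compared. Rplp0 had 5366 and 4358 scaled reads in BRD6688 and 8182 and 7802 in BRD4884, and Rpl22 had 374 and 347 against 581 and 563. In both genes the libraries of the 2 compounds did not overlap. Of the 33 members, 30 were lower in BRD6688 than in BRD4884 (15.5% of all genes), with a median log2 difference of −0.74. The differences were −0.72 for Rplp0 (SE 0.105, limma adjusted p = 0.00538), −0.67 for Rpl22 (SE 0.110, adjusted p = 0.00582) and −1.22 for Rpl39l (SE 0.295, adjusted p = 0.0124).

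The members not called between these compounds were Rpl10, with a difference of −0.66 (95% interval −1.39 to 0.07), Rpl13, at 0.04 (−0.54 to 0.61), and Rps2, at −0.19 (−0.97 to 0.60). The intervals of Rpl10 and Rps2 include the member median of −0.74, and that of Rpl13 does not. In RPKM, 81 of 83 members were lower in BRD6688, with a centred median of −0.69. Of the 545 other genes of the members' length, 52.1% were called lower, with a median of −0.57. The count depended on the libraries used. It was 26 without BRD6688 library 2, 9 and 12 without either BRD4884 library, and 0 without BRD6688 library 1, where no gene at all passed limma's adjusted threshold, the member median was −0.67 and 28 members had an unadjusted p below 0.05.

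**Figure D3:**
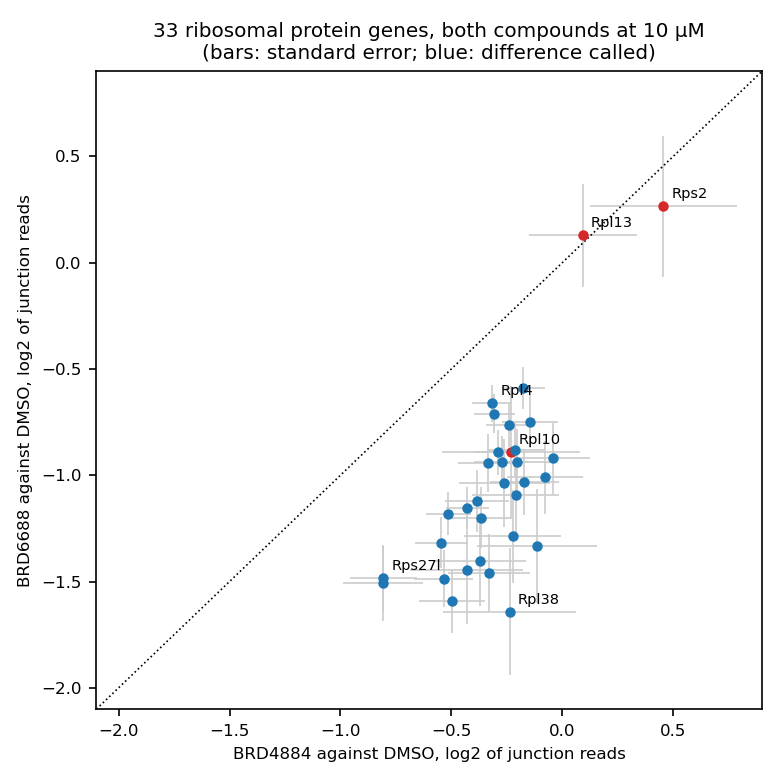
Each of the 33 members is placed by its log2 change in scaled junction reads against DMSO in BRD4884 (horizontal) and BRD6688 (vertical), with bars of 1 standard error from limma, and the dotted line marks equal change. The 30 members whose difference was called (blue) lie below the line, with a median difference of −0.74, and Rpl10, Rpl13 and Rps2 (red) were not called.

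Against DMSO, 13 members were called lower in BRD4884 (28.9% of all genes), with a median of −0.27. The count was 5 without BRD4884 library 2 and 21 without either Vorinostat library. CI-994, related in structure but given at 5 μM, had 5543 and 5417 reads of Rplp0, which stand beside those of the other benzamides without a comparison, since the doses differ.

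Smaller medians below 0 were seen in single libraries of other compounds. In GNF-5837, a TRK kinase inhibitor, 8 of 33 members were called lower (22.1% of all genes), in Crenolanib, an inhibitor of PDGF receptors and FLT3, 6 were (15.1% of all genes), and in BTBS00065 4 were (11.8% of all genes). These counts are near what the shares of all genes would give, and they moved widely with the libraries used. Without DMSO library 2 they were 3, 1 and 2, and without DMSO library 3 they were 5, 2 and 2. Without DMSO library 1 Crenolanib had 2. Without Vorinostat library 1 they were 17, 14 and 17, and without Vorinostat library 2 they were 17, 13 and 17. The median log2 changes were −0.36, −0.25 and −0.33. SCH-772984, an ERK inhibitor, had a median of −0.27 with 1 member called lower (4.8% of all genes), and Trametinib, a MEK inhibitor, had −0.24 with 2 (11.2% of all genes), so that neither count exceeds what the share of all genes would give.

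T5985871, a drug-like compound with 1 library, went the other way. Of 33 members, 17 were called higher (26.9% of all genes) and 1, Rpl7l1, lower (24.9% of all genes), with a member median of 0.54. Rpl41 had 3318 scaled reads against 1002, 938 and 1168 in DMSO, and Rpl13a had 16827 against 7141, 8168 and 7758. Both exceeded the highest control by more than the whole spread of the controls, with log2 changes of 1.69 (limma adjusted p = 0.000138) and 1.13 (adjusted p = 7.99e-05). The largest rises in junction reads were those of Rpl19, at 2.25, and Rpl34, at 1.75, both 60S proteins. Each rests on 1 intron with few reads. In DMSO, Rpl19 had 78, 91 and 87 and Rpl34 had 138, 151 and 151. Their merged RPKM rose less, from 2907 to 3614 for Rpl19 and from 1685 to 1820 for Rpl34. The rise was uneven, since Rpl7 had 21017 reads and Rps27l 2257, both inside or next to their control ranges, with log2 changes of 0.01 (adjusted p = 0.973) and 0.07 (adjusted p = 0.773) that turn to −0.21 and −0.14 when reads are scaled to the total.

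In AW00693, also with 1 library, 9 members were called higher (16.1% of all genes) and 2 lower (15.1% of all genes). Rplp0 had 19559 scaled reads, the highest of any library named here, and 17530 in T5985871, against at most 11415 in DMSO, with log2 changes of 0.86 (limma adjusted p = 0.000208) and 0.70 (adjusted p = 0.000329). In merged RPKM the order differed, with 2018 in DMSO, 2320 in AW00693 and 3570 in T5985871. The few junction reads of Rpl19 rose in AW00693, to 271 from 78, 91 and 87 in DMSO, a log2 change of 1.67. Its merged RPKM went the other way, from 2907 in DMSO to 2401. Without DMSO library 3, 5 members were called higher, and without a Vorinostat library 18. In RPKM its centred member median was 0.05, with 3 members past 1.5-fold higher (8.54% of all genes) and 2 past it lower (9.85% of all genes).

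**Figure D4:**
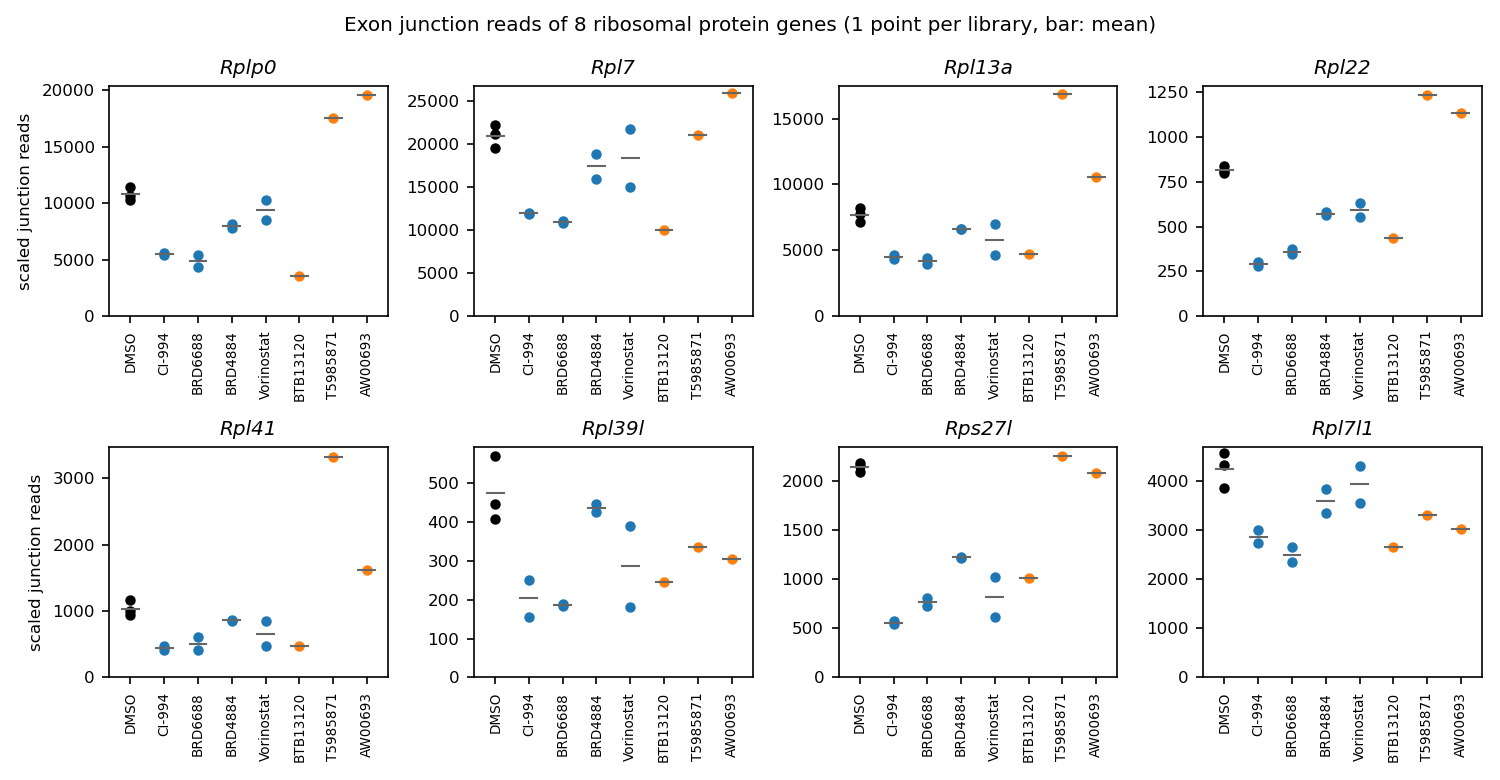
Scaled exon junction reads of 8 members in each library of DMSO (black), the HDAC inhibitors (blue) and 3 other compounds (orange), on linear axes from 0, with a bar at the mean. Rplp0 runs from 3525 in BTB13120 to 19559 in AW00693 around DMSO values of 10239 to 11415, and Rps27l from 541 in CI-994 to 2257 in T5985871.

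Named by their roles, the members without enough junction rows are known from merged RPKM alone, which carries no error. Rplp1 and Rplp2, the acidic stalk proteins, went from 3433 and 575 RPKM in DMSO to 1424 and 242 in CI-994, and to 4072 and 907 in T5985871. Rpsa, the laminin receptor homologue at the mRNA exit site, had 1536 RPKM in DMSO, 876 in CI-994 and 1058 in BRD6688, and its centred ratio was within 1.5-fold in every compound. Rps6, the substrate of S6 kinases, had 1572 RPKM in DMSO and centred ratios from −0.47 in BRD6688 to 0.22 in T5985871, so on that centred scale it too stayed within 1.5-fold throughout.

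Rpl5 and Rpl11 enter the ribosome together with 5S RNA and can bind MDM2 when assembly is disturbed. Rpl11 followed the group, with 2163 RPKM in DMSO, 1013 in CI-994, 1134 in BRD6688, 1365 in BTB13120 and 2254 in T5985871. Rpl5 did not in every compound. It had 395 RPKM in DMSO and was higher in conditions where the group fell, with 580 in CI-994, 584 in BRD6688, 600 in BTB13120 and 467 in Vorinostat. In T5985871 it rose with the group, to 640 RPKM. It had 227 RPKM in NVP-AEW-541, an IGF1 receptor inhibitor. Its centred ratio was 0.99 in CI-994 and 0.75 in BRD6688, and it was among the 2 highest members in 12 of the 27 compounds. No junction row of Rpl5 was available to set beside these values, and 49.0% of the 31-base words of its transcript occur in other transcripts.

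Sequence shared with processed copies elsewhere limits the RPKM of several members. Of 83 members with a coding transcript, 39 shared more than 50% of their 31-base words with transcripts of other genes, and 4 shared more than 90%: Rps27 (98.7%), Rpl36 (94.0%), Rpl9 (93.5%) and Rps18 (90.8%). Rps27 was among the 2 lowest members in 11 compounds and among the 2 highest in 8, from 5.05 RPKM in CI-994 to 156 RPKM in AW00693, with 61.2 RPKM in DMSO. Rpl3, which shared 87.6%, had a centred RPKM ratio of 0.04 in CI-994, whereas its junction reads were 5868, 7902 and 6111 in DMSO and 2871 and 2636 in CI-994, a log2 change of −1.26 (limma adjusted p = 2.41e-06). For Rpl3 the 2 readouts disagree, and its RPKM is uncertain. They did not do so for every such gene, since Rpl9 had a centred RPKM ratio of −1.10 in CI-994 and a junction change of −1.56, and Rpl36 had −0.73 and −1.11. Other members with recurrent extremes included Rps27l, among the 2 lowest in 5 compounds, and Rpl29, among the 2 highest in 5.

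Several core proteins have a paralogue, and its share of the pair was taken from merged RPKM. Rpl22l1 made up 2.07% of the Rpl22 pair in DMSO, with a range of 1.31% in Vorinostat to 3.15% in A-443654, an AKT inhibitor. Rpl39l made up 11.2% of its pair, from 5.89% in T5985871 to 14.2% in NVP-AEW-541. Rpl7l1 made up 4.92%, from 3.21% to 5.68%. The share of Rps27l, 85.2%, is bound to the uncertain level of Rps27.

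Rpl39l stood apart from the group in T5985871, with 336 scaled reads against 409, 447 and 571 in DMSO, a log2 change of −0.49 that did not pass (limma adjusted p = 0.25). In CI-994 it had 155 and 252, and in BRD6688 190 and 184, all below the controls, with log2 changes of −1.25 (adjusted p = 0.000778) and −1.33 (adjusted p = 0.000711). Rpl7l1, which works in the nucleolus rather than in the mature ribosome, had 3852, 4333 and 4572 in DMSO, 3313 in T5985871 and 3015 in AW00693. Its log2 changes of −0.36 (adjusted p = 0.0364) and −0.49 (adjusted p = 0.012) ran against the members that rose. The call of Rpl7l1 in T5985871 was lost without DMSO library 2 (adjusted p = 0.0809) and without DMSO library 3 (adjusted p = 0.101).

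Members with and without a pyrimidine run exactly at the annotated start had similar medians. The 13 with a run had centred RPKM medians of −0.83 in BRD6688, −0.81 in CI-994, −0.72 in BTB13120 and 0.52 in T5985871. The 48 matched members without one had −0.88, −0.82, −0.81 and 0.47. Several of the 48, such as Rpl13a and Rps24, have a run within 5 bases of that start. The split sorts by the annotated base, so it cannot tell whether a tract matters.

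Related gene lists give the setting. They are the other mRNAs known to carry a TOP tract (translation factors and partners, 17 tested), factors of ribosome biogenesis (25 tested) and proteins of the mitochondrial ribosome (73 tested). Of the TOP mRNAs, 14 fell and 1 rose in CI-994, 16 fell in BRD6688 and 12 in BTB13120, and 13 rose in T5985871. Their medians were −0.77, −0.73, −0.57 and 0.52.

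Biogenesis factors, which process and assemble ribosomal RNA in the nucleolus, had their own pattern over the compounds. All 25 fell in CI-994, BRD6688, Vorinostat and BRD4884, with medians of −0.999, −0.85, −1.33 and −0.77, and 23, 22 and 23 fell in GNF-5837, Crenolanib and BTBS00065. In BTB13120, 9 of the 25 fell, with a median of −0.14, beside 28 of 33 members. Between BRD6688 and BRD4884 the biogenesis median was 0.07, with 2 genes lower and 4 higher. In the same comparison 40 of 73 mitochondrial ribosomal proteins were lower and 0 higher, with a median of −0.39. Of the 17 other TOP mRNAs, 9 were lower and 1 higher, with a median of −0.25. Of all genes, 15.5% were lower and 11.9% higher. Of the mitochondrial ribosomal proteins, 67 of 73 fell in CI-994, 64 in BRD6688, 44 in BTB13120 and 58 in Vorinostat, with medians of −1.06, −0.81, −0.49 and −0.70. In T5985871, 14 of the 25 biogenesis factors rose and 4 fell, with a median of 0.31. Of the 73 mitochondrial ribosomal proteins, 22 rose there and 5 fell, with a median of 0.22, where 26.9% of all genes rose.

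**Figure D5:**
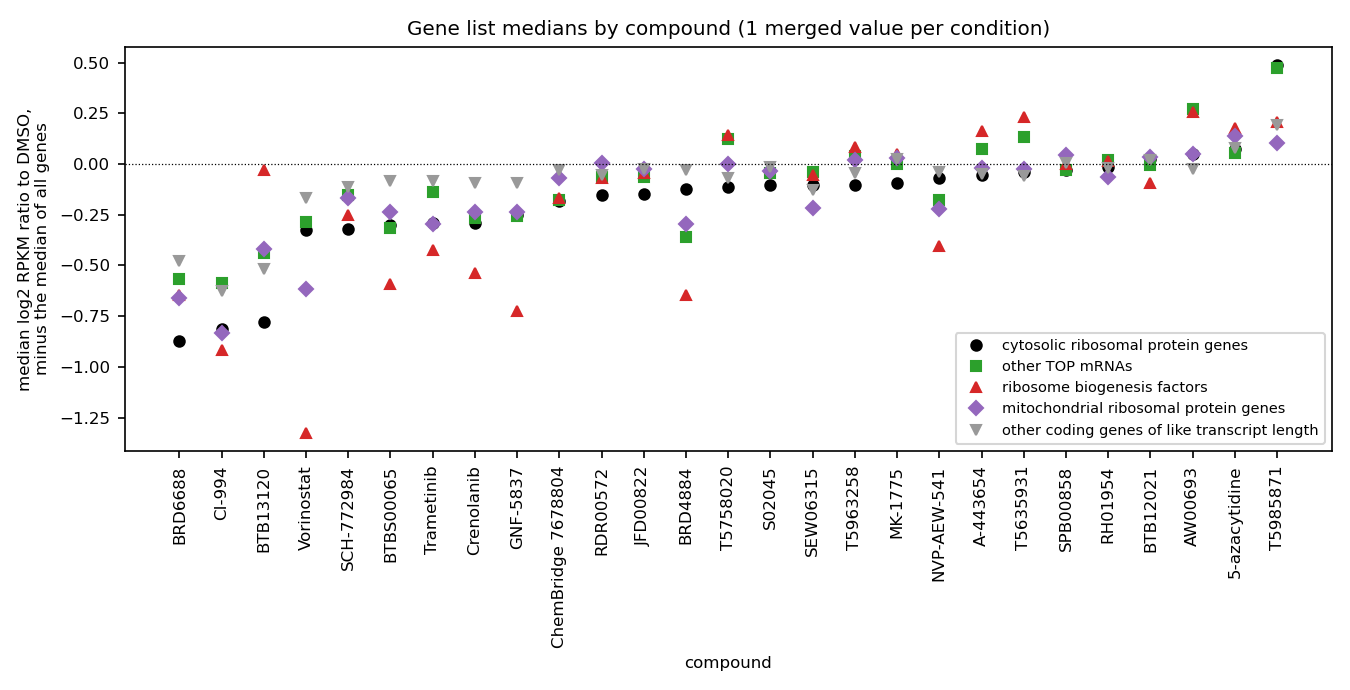
Median log2 ratio of RPKM to DMSO, minus the median of all genes, for the ribosomal protein genes (black circles), the related lists and other coding genes of like transcript length in each of 27 compounds, from 1 merged value per condition with no error. In BTB13120 the ribosomal protein genes stand at −0.78 and the biogenesis factors at −0.03, while in Vorinostat the medians are −0.32 and −1.32.

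Among regulators of ribosome production and of TOP mRNAs, 13 genes tested, 6 fell and 4 rose in CI-994, 6 fell and 3 rose in BRD6688, and 6 rose and 0 fell in BTB13120. Of all genes, 39.6% were called higher in CI-994, 33.1% in BRD6688 and 17.3% in BTB13120, beside the shares called lower given above, so the counts in CI-994 and BRD6688 are near those of all genes. Of 6 p53 targets tested, 4 rose in T5985871, where 26.9% of all genes did, and 3 rose in CI-994 and in BTB13120.

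Introns of members were almost always spliced out. The table held 67 introns of 35 members, and 34 introns of 17 members passed the filters of at least 15 reads and balanced ends. Percent intron retention (PIR) in DMSO had a median of 0.116 over these, 31 of 34 were under 1 PIR, and the highest was 4.19 PIR ± 3.33 (SD, n = 3), for an intron of Rpl34. Over the 27 compounds limma called 0 of the 34 changed on the log2 ratio of intron to exon junction reads, adjusted over 74468 introns, where 0.0973% of the tests of all introns were called, with 48 member tests at an unadjusted p below 0.05. The largest rise of a mean was 5.71 PIR, for the Rpl34 intron in CI-994, which reached 9.90 PIR where the DMSO libraries had 7.56, 4.12 and 0.901, and no intron rose by 10 PIR.

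In T5985871 several introns had higher retention than any DMSO library. An intron of Rpl18 had 2.27 PIR against 0.312, 0.225 and 0.340, and an intron of Rps26 had 3.08 PIR against 0.625, 0.692 and 0.620. A short intron of Rpl8 had 1.34 PIR against 0.143, 0.173 and 0.156. On the log2 ratio 0.463% of all introns were called higher in this library and none of the members' introns. On the PIR scale itself limma called 7 of the 34 higher, against 8.55% of all introns, so the call depends on the scale. Over the 27 compounds that scale gave 18 calls among the members' introns, 1.96% of their tests against 1.87% of the tests of all introns.

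Most alternative exons of members were included in nearly every transcript. Of 56 exon events of 25 members, 30 events of 14 members could be tested, and 24 of them were over 99 percent spliced in (PSI) in DMSO. Limma called 0 changed in the 27 compounds, where 0.0456% of the tests of all exon events were called, with 92 member tests at an unadjusted p below 0.05. An exon of Rpl22 had 72.2, 66.0 and 67.4 PSI in DMSO and 86.8 PSI in the A-443654 library, outside the control range but not called. The highest single library for this exon, of an HDAC inhibitor, stood at 92.7 PSI. The mean of that inhibitor lay nearer to DMSO than the A-443654 library, so replicates of this exon varied widely. The 9 tested events listed under Rpl24 are within these counts, and most of them are over 99 PSI. They are not described further, because most span more bases than the gene. An exception spans 4459 bases against 5161, with 95.4, 96.6 and 100 PSI in DMSO and 79.0 PSI in MK-1775, not called. The tested Rpl4 event, at 7187 bases against 5292, also spans more than its gene.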

How the data were processed

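Reads were aligned to junctions by the authors with vast-tools in mm9 coordinates. The deposited percent values (PIR and PSI) and the quality strings that hold read counts per event came from the authors' runs, 1 set per library. The authors derived RPKM per gene from Salmon (0.10.2 in the submitters' processing notes) over GENCODE mouse transcripts and merged replicates. The deposited fold changes, p-values and FDR of the authors' edgeR test, and a second splicing table with their own comparisons, were not used. Every column of values had a condition.

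Exon-exon junction reads were summed per gene over the introns of the table, scaled by median-of-ratios size factors, and tested with limma 3.58.1 in R 4.3.3 (trend, log2 of reads plus 0.5) over all 34 libraries, which left 6 residual degrees of freedom from the 5 replicated conditions. A compound with 1 library is assumed to vary like those, and p-values measure the spread between libraries, which may be technical. Genes under 20 reads on average were left out, introns needed 15 reads and a balance p above 0.05, and exons 15 reads. Many members had only 1 listed intron, among them Rplp0, Rpl7, Rpl9, Rpl19, Rpl22, Rpl38 and Rps15. Their gene value is the reads of 1 junction. Scripts were tested on simulated data. An adjusted p below 0.05 was called. The library kit does not mark strand, so antisense reads are counted with a gene.

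Members, lists and tests were chosen with earlier results of these data known. Members were named by role (stalk, 5S partners, Rps6, paralogue pairs and a few others) or as the 2 highest and 2 lowest RPKM ratios that recur in the most compounds. Other genes, introns and exons named by their values were chosen after these were seen. Alternatives were the scaling, the filter on low reads, voom weights, the top junction of each gene, the centring and filter of RPKM, the denominator of the share, and leaving out each replicate. Values of some genes are not reported here.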

Additional observations from a re-analysis of the deposited data

How the results depend on the processing

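Counts of members called lower in CI-994 and BRD6688 moved least: leaving out each library in turn gave 30 to 33 and 30 to 31, and BTB13120 gave 21 to 31. The ranges were 7 to 29 in Vorinostat, 5 to 21 in BRD4884, 3 to 17 in GNF-5837, 1 to 14 in Crenolanib, 2 to 17 in BTBS00065 and 0 to 30 between BRD6688 and BRD4884, and for members called higher 15 to 21 in T5985871 and 5 to 18 in AW00693. Introns called ranged from 0 to 1, the 1 without either CI-994 library, and exons gave 0 throughout. Scaled to total junction reads, the counts were 6 in BRD4884, 3 in GNF-5837, 1 in Crenolanib, 2 in BTBS00065 and 4 in AW00693. With the top junction of each gene they were 7, 5, 1, 0 and 5, but for members with 1 listed intron this setting takes the same reads. Without a filter on low reads GNF-5837 gave 5 and Crenolanib 3, and voom weights gave 7 in BTBS00065. On the difference of PIR 18 tests of members' introns were called, close to the share of all introns. In T5985871 the uncalled changes of Rps27l and Rpl7 reversed to −0.14 and −0.21 under total scaling, that of Rpl3 to 0.050 without DMSO replicate 2, and that of Rpl7 to −0.042 without DMSO replicate 3, with 0.0501 as the highest value of Rpl7 when 1 library was left out. Not centred, the RPKM medians were −1.06 in BRD6688, −1.25 in CI-994, −0.88 in BTB13120, −0.69 in Vorinostat, −0.37 in SCH-772984, −0.45 in BTBS00065, −0.40 in Trametinib, −0.44 in Crenolanib, −0.45 in GNF-5837, −0.39 in BRD4884 and 0.28 in T5985871. With no filter on low values they were, in the same order, −1.04, −1.25, −0.86, −0.67, −0.36, −0.45, −0.40, −0.43, −0.43, −0.39 and 0.28. Above 1 RPKM they were −0.94 in BRD6688, −0.99 in CI-994, −0.47 in Vorinostat, −0.35 in BTBS00065, −0.30 in GNF-5837, −0.21 in BRD4884 and 0.44 in T5985871. Over members with at most 50% shared 31-base words, a choice made after seeing the data, they were −0.87 in CI-994 and 0.42 in T5985871. Among genes above 5 RPKM the members' share of summed RPKM was 11.4% in DMSO, 6.95% in BRD6688, 6.975% in CI-994, 6.88% in BTB13120, 8.52% in Vorinostat, 10.8% in BRD4884 and 11.9% in T5985871. The cause of these moves was not tested. Libraries with the same letter were not paired (correlations of their deviations between −0.16 and 0.06). With a replicate block over the HDAC inhibitors and DMSO, 32 members were lower in CI-994, 30 in BRD6688, 14 in Vorinostat and 13 in BRD4884, and 26 between BRD6688 and BRD4884, against 29 in the same libraries without the block, a setting also added after seeing the data. No intron was called with the block (0). Merged RPKM has no error, junction reads cover 33 of 87 members, and 23 compounds rest on 1 library each.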
